A study of Mus musculus with 10 samples.

Results

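The regions described here are broad stretches of acetylated chromatin that were listed in 3T3-L1 cells 240 h after differentiation was induced. None had a listed 6 h peak of an early factor at a gap under 1000 bp. They were taken from the authors' list of regions with differential acetylation of histone H3 at lysine 9 (H3K9ac) at 240 h by a rule on width and distance. A region was kept when its end minus its start was 2500 bp or more and when no C/EBPβ or glucocorticoid receptor (GR) peak of 6 h lay at a gap under 1000 bp. The rule kept 1646 of 7845 regions (21.0%). Of the others, 5181 were narrow and without an early factor, 336 were broad and near one, and 682 were narrow and near one. The members were thus chosen by measured values, their width and their distance from the 6 h peaks, so these measures, and every value of the same 240 h list, are given as description only.

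3T3-L1 is a mouse fibroblast line, here grown in high-glucose medium with fetal bovine serum, that turns into fat cells in culture. Chromatin immunoprecipitation with sequencing was applied to H3K9ac at 0, 24 and 240 h, to C/EBPβ at 0 and 6 h and to GR at 6 h, where 0 h means undifferentiated cells and the GR library used a pair of antibodies. The labels name only a standard differentiation protocol, not its agents, so all later times share induction without a stated mixture. Each of the 6 lists comes from 1 library, and the files give no read totals. Replicate error is therefore unknown, and the 95% intervals below cover counting error only. A library averages over its culture, so a greater share of acetylated cells and more acetylation per cell cannot be told apart.

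H3K9ac marks the nucleosomes of active promoters and enhancers and is laid down by acetyltransferases that transcription factors recruit. C/EBPβ, a basic leucine zipper factor, and GR, the nuclear receptor for glucocorticoids, act in the first hours of fat cell differentiation, before the later regulators PPARγ and C/EBPα take over the mature programme. Broad acetylated stretches are commonly found around strongly expressed genes of a cell type. The 240 h list holds only regions outside transcription start sites, called at that time relative to 0 or 24 h per the labels. Positions are on the mouse build mm8 as deposited. No annotation or genome of that build was used here, so no gene is assigned to a region and no sequence is shown.

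Because the rule asks for width, the members held a larger part of the listed length than of the number of regions. So did broad regions near early factors, with 8.90% of the length and 4.28% of the regions. The members covered 6.65 Mb, which was 40.1% of the 16.6 Mb listed at 240 h, while the 5181 narrow regions without early factors covered 7.44 Mb (44.8%). The widths of members had a median of 3400 bp with quartiles of 2850 and 4550 bp, and ended at 18100 bp. Most lay close to the limit, with 503 members (30.6%) from 2500 to under 3000 bp and 560 (34.0%) from 3000 to under 4000 bp. Another 409 (24.8%) were from 4000 to under 6000 bp wide and 145 (8.81%) from 6000 to under 10000 bp. Only 29 members (1.76%) reached 10000 bp.

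Applied to the other acetylation lists, the rule kept 543 of 4429 regions of the 0 h list (12.3%) and 84 of 1629 of the 24 h list (5.16%), beside the 21.0% given above for 240 h. Regions of 2500 bp or more made up 19.5%, 13.8% and 25.3% of the lists at 0, 24 and 240 h. Of those broad regions, 62.9% in the 0 h list, 37.3% in the 24 h list and 83.0% in the 240 h list lay away from both early factors. Most narrow regions of the 240 h list also lay away from both, with 5181 away and 682 near one. Of all 7845 regions at 240 h, 1018 were near an early factor, so lying away from them is not particular to broad regions. Matching counts over all widths were not taken for the 0 h and 24 h lists. The shares of 62.9%, 37.3% and 83.0% therefore cannot show whether the lists differ in their broad regions or in regions of any width. The lists also come from libraries of unknown depth. The shares above follow from the rule at 240 h and were not tested. Within the 240 h list, the share of broad regions without an early factor was 85.0% from 2500 to under 3000 bp and 74.4% at 10000 bp or more, and a wider region also offers more length in which a peak can fall.

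The authors' average read count, a whole-number signal, ran from 8 to 45 among the members with a median of 12 and quartiles of 11 and 14. Narrow regions without early factors ran from 8 to 34 with a median of 10 and quartiles of 10 and 12. Counts of 20 or more were listed for 97 members (5.89%) and for 33 of those narrow regions (0.637%), where 2.41% of all 240 h regions had such a count. Broad regions near early factors stood higher than the members, with a median of 13 and 46 of 336 (13.7%) at 20 or more. The members, 21.0% of the list, were 10.6% of the regions with counts of 8 or 9 and 51.3% of the 189 with 20 or more. Broad regions near early factors, 4.28% of the list, held 46 of those 189, so such counts are not particular to the members. The members included 3 of the 5 highest regions of the list, 6 of the highest 10 and 27 of the highest 50. A false discovery rate of 0 was listed for 1335 members (81.1%), for 1609 narrow regions without early factors (31.1%) and for 300 broad regions near early factors (89.3%), against 45.3% of all 240 h regions. Width, read count and false discovery rate come from the same call on the same library, so nothing is read from their moving together.

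**Figure D1:**
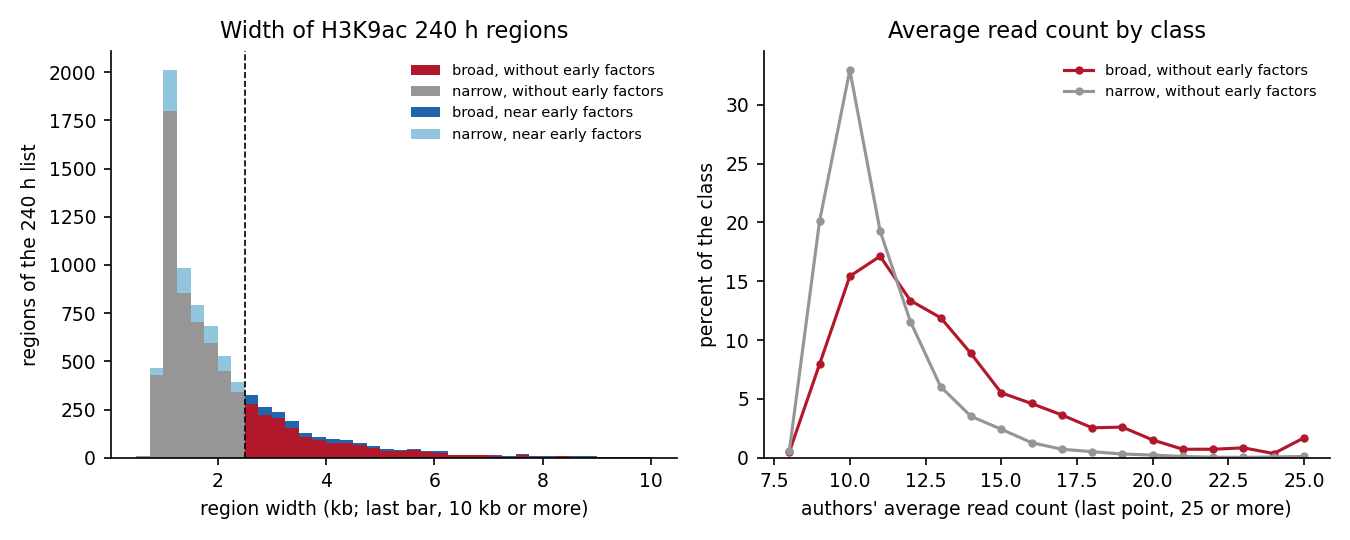
Left, number of H3K9ac 240 h regions by width in kb, stacked by class, with the 2500 bp limit as a dashed line. Right, percent of regions at each average read count, for the broad and the narrow class without early factors only. Broad regions without early factors have a median read count of 12, and the narrow ones one of 10.

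Wider members had higher read counts. The median rose over the width classes, with 11 from 2500 to under 3000 bp, 12 from 3000 to under 4000 bp, 13 from 4000 to under 6000 bp, 15 from 6000 to under 10000 bp and 17 at 10000 bp or more. All 29 members of 10000 bp or more had a false discovery rate of 0, as did 346 of the 503 narrowest. Across the 1646 members, Spearman's rho of width with read count was 0.31, and across the 5181 narrow regions without early factors it was 0.17. It was 0.34 across the 336 broad regions near early factors and 0.37 across all 240 h regions. These are correlations across regions of 1 library, which share its depth and the same caller.

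**Figure D2:**
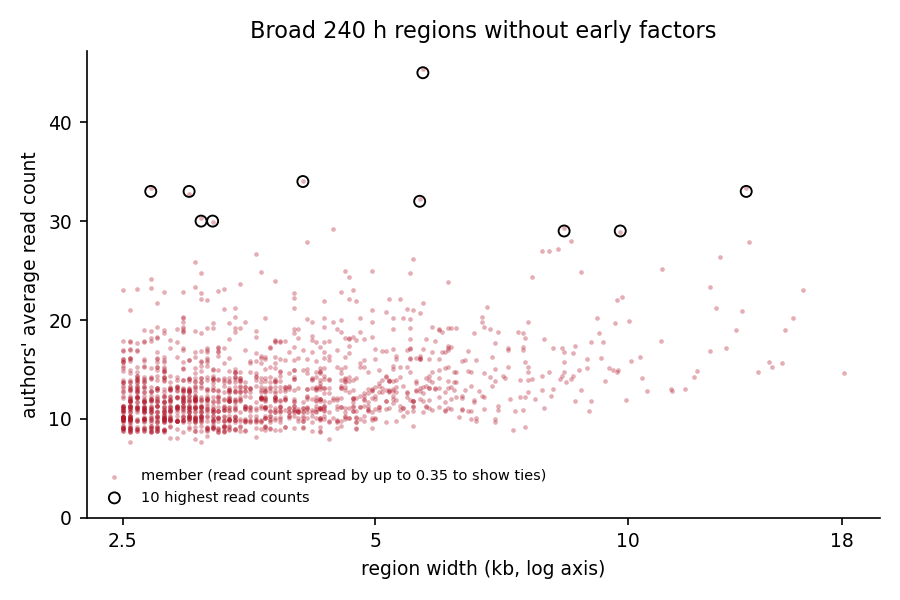
The authors' average read count of each broad 240 h region without early factors against its width in kb on a log axis, with the 10 highest circled (a tie at 29 was broken by width). The highest value, 45, belongs to a region 5700 bp wide, and the widest region, 18100 bp, has a value of 15.

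The 10 members with the highest read counts ranged in width between 2700 and 13850 bp. The highest lay at chr19:44467550-44473250, was 5700 bp wide and had a read count of 45, the highest of the whole 240 h list. It was also the member of these 10 nearest to early factors, with a C/EBPβ 6 h peak of height 24 at 2347 bp and a GR peak of height 14 at 2262 bp. A region at chr1:195010150-195014250 followed with a read count of 34, and its nearest C/EBPβ 6 h peak lay 66728 bp away. Regions with a count of 33 included the widest and the narrowest of the 10. They lay at chr6:124390800-124404650 (13850 bp), chr13:37549000-37552000 (3000 bp) and chr15:12493150-12495850 (2700 bp). The region at chr7:127604650-127610300 had a count of 32, and those at chr18:12107950-12111150 and chr2:5203550-5206650 one of 30. The last of these was the only one of the 10 with a C/EBPβ 0 h peak within 1 kb. The regions at chr8:42510150-42519950 and chr17:30759800-30768200 had a count of 29 and widths of 9800 and 8400 bp. Of the 10, 6 had another 240 h region at a gap under 1 kb, 3 had a C/EBPβ 6 h peak under 10 kb away and 2 had a GR peak under 10 kb away.

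The 5 widest members were 15300 to 18100 bp wide with read counts of 15 to 23. The widest, at chr6:94558100-94576200, had a read count of 15 and stood 25900 bp from the next 240 h region. The region at chr5:36187100-36203300 was 16200 bp wide with the highest read count of the 5, at 23, and a neighbour 450 bp away. Chromosome 5 held 2 more of them, at 136508250 to 136524000 with a read count of 20 and at 30873500 to 30888900 with 19. The fifth, at chr1:195022600-195037900, had a count of 16 and followed the second strongest member on its chromosome. None of the 5 had a C/EBPβ 0 h peak within 1 kb, and their nearest C/EBPβ 6 h peaks were 9486 to 79178 bp away.

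The regions next to the limits of the rule were as follows. At widths of 2500 and 2550 bp there were 64 and 69 members, and at 2400 and 2450 bp 87 and 59 regions without early factors, with a median read count of 11 in each of these sets. The member closest to a factor, at chr6:94602100-94606400, had a C/EBPβ 6 h peak 1002 bp away and a read count of 12. The broad region left out with the largest gap, at chr12:33617350-33622400, had a GR peak 993 bp away and also a read count of 12. Of broad regions, 7 had their nearest 6 h peak at 1000 to under 1100 bp and 5 at 1100 to under 1200 bp, with median read counts of 14 in both sets. Left out were 3 at 900 to under 1000 bp and 2 at 800 to under 900 bp, with medians of 12 and 16.

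Early factors were not far from many members. The nearest 6 h peak of either factor lay from 1 to under 2 kb from 44 members (2.67%), from 2 to under 5 kb from 168 (10.2%) and from 5 to under 10 kb from 201 (12.2%). It lay from 10 to under 50 kb from 755 members (45.9%), and 100 kb or more from 227 (13.8%). Median read counts in these distance classes were 12 or 13 throughout. The median gap was 26.2 kb to a C/EBPβ 6 h peak and 165 kb to a GR peak. A C/EBPβ 6 h peak lay under 10 kb from 394 members (23.9%) and 26.5% of narrow regions without early factors, against 35.2% of all 240 h regions. For GR these shares were 4.86%, 6.18% and 8.46%. The rule removed the nearest peaks from both classes without early factors, so these shares were not tested.

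The C/EBPβ list of undifferentiated cells was not itself part of the rule. Most of its peaks overlap a C/EBPβ 6 h peak, and the rule all but keeps those from both classes without early factors. The rule thus lowers the shares of both classes given next, and the classes differ by width, which the rule used. A C/EBPβ 0 h peak lay at a gap under 1 kb from 56 of 1646 members (3.40%, Wilson interval 2.63 to 4.39%) and from 99 of 5181 narrow regions without early factors (1.91%, 1.57 to 2.32%). The share over all 240 h regions was 7.84%, which includes the regions near 6 h factors, whose share the rule raises. The members exceeded the narrow regions by 1.49 percentage points (Newcombe interval 0.616 to 2.54). A wider region offers more length in which a peak can fall. With width limits of 2000 and 3500 bp the excess was 1.57 points (0.804 to 2.43) and 1.77 points (0.567 to 3.39). Distances were also counted from the centre of each region, under a limit longer than 1 kb. That limit was the same for all widths, so wide regions kept less flank to search. Under it, 2.92% of members and 3.13% of narrow regions were near a peak, a difference of -0.21 points (-1.08 to 0.817). Counted from the edges within 10 kb it was -2.11 points (-4.26 to 0.151), and among regions with a false discovery rate of 0 it was 1.22 points (-0.0645 to 2.58), with intervals that hold 0. Per length searched, members with 1 kb on each side held 56 peaks in 9.69 Mb, or 5.78 per Mb (exact Poisson interval 4.37 to 7.51). Narrow regions held 96 in 17.0 Mb, or 5.65 per Mb (4.57 to 6.90). Both lay above the 3.95 per Mb of all chromosomes, measured to the highest listed coordinate and so including DNA where reads cannot be placed. That mean counts all 10359 peaks, of which 7385 overlap a C/EBPβ 6 h peak. The rule all but keeps such peaks from both classes, so the mean and the 2 densities do not rest on like sets of peaks.

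**Figure D3:**
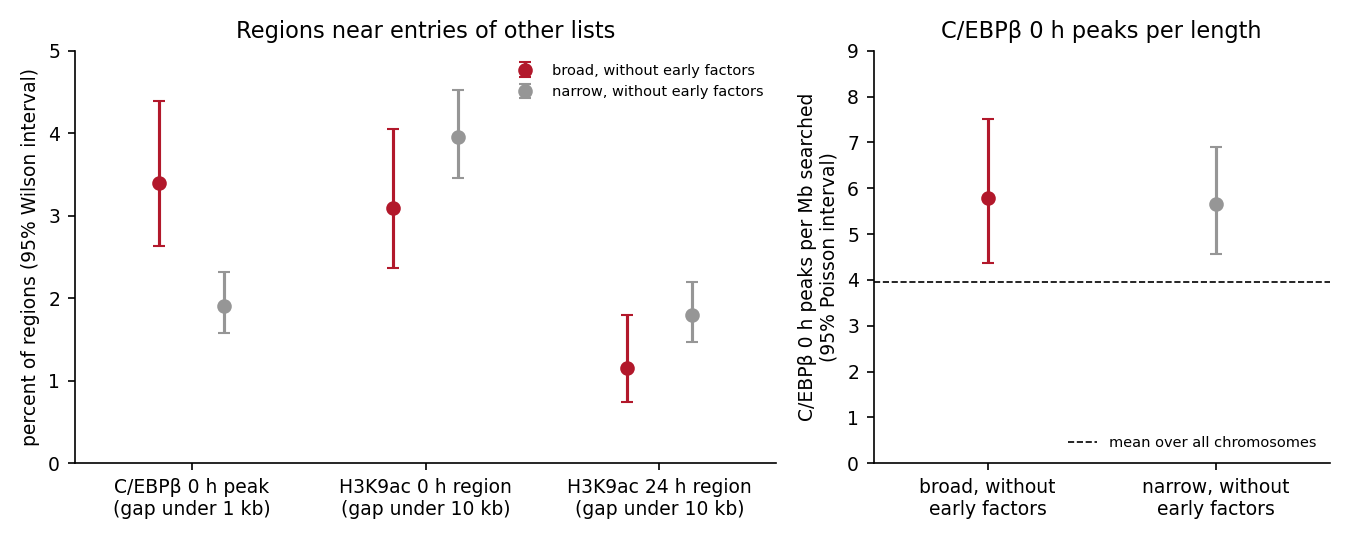
Left, percent of regions near an entry of 3 other lists, with 95% Wilson intervals, for broad and narrow 240 h regions without early factors; right, C/EBPβ 0 h peaks per Mb searched with 95% Poisson intervals and the mean over all chromosomes as a dashed line. The C/EBPβ share is 3.40% in broad and 1.91% in narrow regions, while the densities are 5.78 and 5.65 peaks per Mb. The dashed mean counts all C/EBPβ 0 h peaks. Most of these overlap a C/EBPβ 6 h peak, and the rule all but keeps such peaks from both classes.

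The C/EBPβ 0 h peaks near members ran in height from 12 to 37 with a median of 16. Near narrow regions without early factors the median was also 16 and the highest 64. None of the 56 peaks near members overlapped a C/EBPβ 6 h peak, which the rule all but fixes. All 2974 peaks of the 0 h list without such an overlap had a median height of 14 and a highest value of 86. Of the 56 members, 49 contained or touched the peak and 1 had more than 1 peak. The highest such peak, at chr1:188383435-188383666, was 37 high, with a fold enrichment of 16.9. It lay inside the member at chr1:188382350-188384900, which was 2550 bp wide with a read count of 16, and the nearest C/EBPβ 6 h peak was 30006 bp away. Peaks of height 36 and 34 lay inside members at chr15:12044400-12050050 and chr5:36261650-36266700, with read counts of 16 and 14.

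Regions of the 0 h and 24 h acetylation lists, which hold only regions called relative to other times, lay near few members and near few of all 240 h regions. An H3K9ac 0 h region lay at a gap under 10 kb from 51 members (3.10%, 2.36 to 4.05%) and from 205 narrow regions without early factors (3.96%, 3.46 to 4.52%), where 3.71% of all 240 h regions were near. The difference was -0.86 points (-1.79 to 0.216), within counting error. An H3K9ac 24 h region lay under 10 kb from 19 members (1.15%, 0.740 to 1.80%) and 93 narrow regions (1.80%, 1.47 to 2.19%), against 1.77% of all 240 h regions. Here too the difference of -0.64 points (-1.22 to 0.0796) was within counting error. Under some alternatives, given below, the intervals of these differences lay below 0. The authors made the 3 lists relative to each other per the labels, and the part of that step in these shares was not tested. Median gaps from a member were 194 kb to an H3K9ac 0 h region and 466 kb to a 24 h region.

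Among broad regions, those without an early factor were set against the 336 near one, a comparison chosen after the values had been seen. An H3K9ac 0 h region lay under 10 kb from 3.10% of the 1646 members and from 4 of the 336 (1.19%, 0.464 to 3.02%), a difference of 1.91 points (-0.0638 to 3.11). For 24 h regions the shares were 1.15% and 1.19%, with a difference of -0.0362 points (-1.91 to 0.933). Both intervals hold 0, and neither shows that the classes are alike.

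Members lay close to other regions of their own list. The gap to the nearest other 240 h region had a median of 1950 bp among members (quartiles 400 and 12988 bp) and 6700 bp among narrow regions without early factors (quartiles 1000 and 34100 bp). A neighbour at a gap under 10 kb was listed for 1178 members (71.6%) and 2908 narrow regions (56.1%), against 58.7% of all 240 h regions. Broad regions near early factors had 68.8% and narrow ones 42.5%. The nearest neighbour of those 1178 members was itself a member in 377 cases (32.0%), a narrow region without early factors in 722 (61.3%) and a region near an early factor in the remainder. Members were 21.0% of the list, and the narrow regions without early factors 66.0%. Such a neighbour was a member for 26.1% of narrow regions without early factors and for 19.0% of broad regions near one. Since regions in such groups share their surroundings, the counting intervals above, which treat regions as independent, are too narrow.

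**Figure D4:**
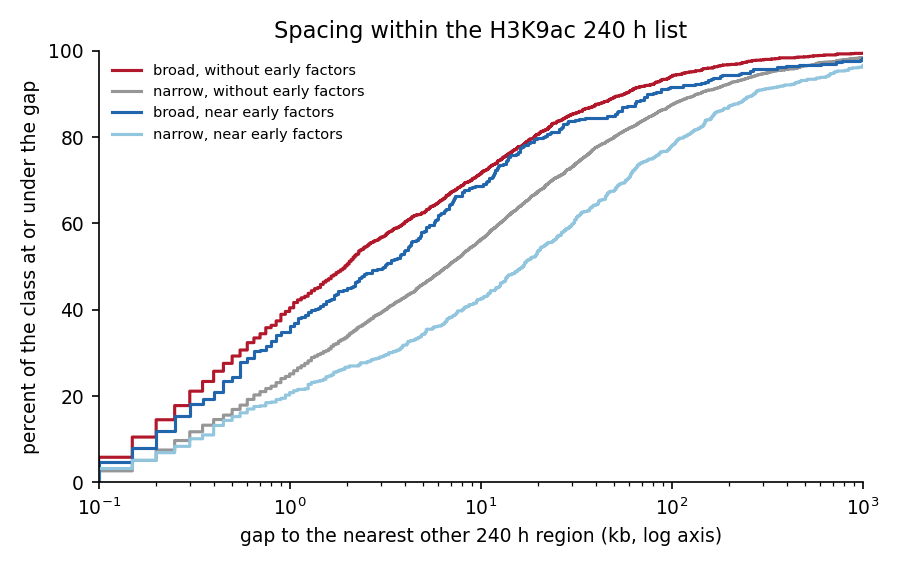
Percent of each class of H3K9ac 240 h regions whose nearest other 240 h region lies at or under a given gap in kb (log axis). The curve of broad regions without early factors lies highest over most of the range, with 71.6% under 10 kb and a median of 1950 bp.

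Many members were separated from a neighbour by a short gap. No gap in the 240 h list was under 100 bp, and 652 members (39.6%) had another region at a gap under 1 kb, as did 1272 narrow regions without early factors (24.6%), 34.8% of broad regions near early factors and 27.8% of all 240 h regions. When regions under 1 kb apart were joined into chains, a step added after the data had been seen, the 1646 members fell into 1473 chains, 479 of which held 2 or more regions. Applied to chains, the rule kept 1730. They held 1594 of the members, and 299 of them held no member but were built from narrow regions. Of the narrow regions without early factors, 1089 (21.0%) lay in a chain that met the rule. The other 52 members (3.16%) were joined to a region near an early factor.

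The 3 chains below were among those with most members and were picked after their values had been seen. The longest ran over 47750 bp at chr6:88712500-88760250 with 44950 bp covered, and held 5 members, with read counts of up to 19, and 2 regions near early factors, with read counts of up to 29. Another chain with 5 members lay at chr14:29385450-29403550, spanned 18100 bp with 1 narrow region and had no early factor near any of its regions. A chain at chr17:27728850-27755450 held 4 members and 1 narrow region over 26600 bp, and its members had read counts of up to 26. It was not the only chain with 4 members.

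On a grid of 100 kb windows, members were found in 1103 windows, of which 763 held a single one. Windows with 4 or more numbered 45 and held 213 members (12.9%). A window on chromosome 11 from 54700000 to 54800000 held 8 members over 41.0 kb of acetylated DNA, with read counts of 11 to 20. It had 2 further 240 h regions and no entry of any other list. A window on chromosome 6 from 88700000 to 88800000, with the chain described above, also held 8 members among 14 regions of the 240 h list, with 1 C/EBPβ 0 h and 3 C/EBPβ 6 h peaks. Windows on chromosome 5 from 30800000 and on chromosome 8 from 47900000 held 7 members each. The chromosome 5 window had no other 240 h region and 1 C/EBPβ 6 h peak, and the chromosome 8 window had 3 other 240 h regions and 4 C/EBPβ 6 h peaks. None of these 4 windows held a GR peak or an H3K9ac region of 0 or 24 h.

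**Figure D5:**
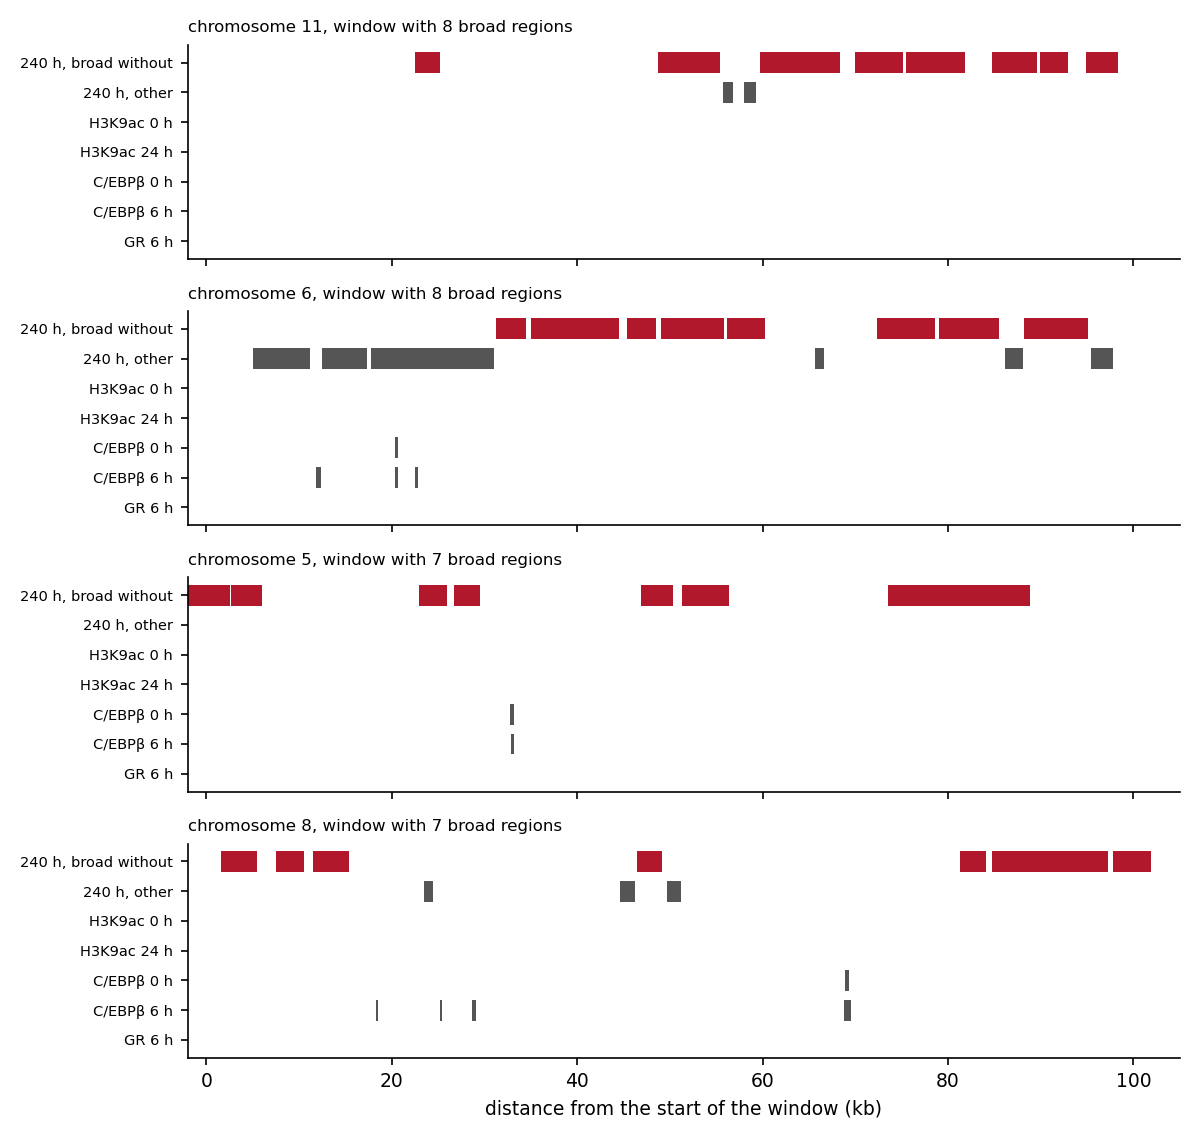
Listed intervals in the 4 windows of 100 kb with most broad 240 h regions without early factors (red, top track of each panel), against distance from the window's start in kb; other 240 h regions and the entries of 5 other lists are in grey below. The chromosome 11 window holds 8 red regions and no factor peak, and in the chromosome 6 window the 3 C/EBPβ 6 h peaks lie at the neighbouring grey regions, left of the red ones.

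Members were spread over the 20 listed chromosomes. Chromosomes 11 and 6 held most, with 153 and 151, and chromosome X held 7. As a share of the 240 h regions of a chromosome, members ranged from 13.7% on chromosome 3 (31 of 227, 9.79 to 18.7%) to 24.3% on chromosome 7 (114 of 469, 20.6 to 28.4%). All 7 of the broad 240 h regions on chromosome X were members, where 83.0% of all broad 240 h regions were.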

How the data were processed

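Per the labels' protocols, 36 bp reads from the Solexa pipeline were aligned with ELAND (up to 2 mismatches) to mm8, and unique reads were kept once per start coordinate, which leaves repeats uncovered and caps strong peaks. The caller is not given in the sources used here. The deposited H3K9ac lists give a false discovery rate (a q-value) and an average read count (a signal) per region, on a 50 bp grid. The deposited C/EBPβ and GR lists give a peak height (a signal, 12 or more) and a fold enrichment over an undescribed background. All of these are deposited values and are compared only inside their own list. The authors also deposited 6 intervals of input bias, 688 kb long in all, and no 240 h region overlapped them. The 4 input libraries were not analysed here.

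Gaps ran between nearest edges (0 where intervals overlap or touch). Shares have 95% Wilson, differences Newcombe and densities exact Poisson intervals. Such an interval is the test of a difference, and with 1 library per list there is no p-value across libraries. Computations used Python 3.11.15, numpy 2.4.6, pandas 2.3.3 and scipy 1.17.1, with gap and class code tested on simulated intervals. Distances, widths, thresholds and alternatives, and the rule for named regions (the 10 highest read counts, 5 widest, 3 with the highest C/EBPβ 0 h peak, the 3 densest windows with ties, and the edges of the rule), were chosen with earlier results of these data known. Gene lists drawn up for an mm8 annotation were not used.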

Additional observations from a re-analysis of the deposited data

How the results depend on the processing

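The unknown depth limits every statement on entries missing from a list. No paired analysis was possible because each group is 1 library. Of the alternatives for shares, 18 stayed within the main interval and 9 moved. Of those for differences from narrow regions, 18 kept direction and call. Stronger peaks were those above the middle rank by height, with ties ranked by fold enrichment. Near C/EBPβ 0 h peaks, the share of members was 19.3% within 10 kb. It was 5.41% when only the stronger 6 h peaks excluded a region, and 1.28% with the stronger 0 h peaks alone. The difference from narrow regions turned to -2.11 points within 10 kb and -0.21 from the centre with its longer limit. It was 1.22 (-0.0645 to 2.58) over regions with a false discovery rate of 0. Near H3K9ac 0 h regions, the share was 0.0608% within 1 kb, 16.8% within 50 kb and 1.46% with the stronger 0 h regions, and the interval of the difference lay below 0 within 1 kb (-0.34) and from the centre (-1.42), a measure that leaves wide regions less flank to search. Near H3K9ac 24 h regions, the share was 0.0608% within 1 kb, 7.47% within 50 kb and 0.547% with the stronger regions. That interval lay below 0 within 50 kb (-2.08), from the centre (-0.78), at a width limit of 2000 bp (-0.70) and with the stronger 6 h peaks (-0.78). Among broad regions the 24 h difference turned to 0.0608 within 1 kb and 0.114 at 2000 bp, still within counting error. A width limit of 3500 bp left 782 members. Shares moved with distance and with shorter lists by construction, and the cause of the other changes was not tested.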

Other observations

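The 240 h list is not in 1 order. Its false discovery rates start again from 0 at rows 6449 and 7689, which divides it into runs of 6448, 1240 and 157 regions. What the runs stand for is not given in the sources used here. Members made up 1176 regions (18.2%) of the first run, 377 (30.4%) of the second and 93 (59.2%) of the third. Regions near early factors made up 11.3%, 20.4% and 24.2%. Members had median widths of 3300, 3850 and 4050 bp and median read counts of 12, 12 and 13 in the 3 runs. The member with the highest read count, 45, is in the third run. Runs come from the same list as the rule, so these shares were not tested.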
